A study of Arabidopsis lyrata subsp. lyrata and Arabidopsis thaliana with 7 samples.

Results

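The genes described here are the 49 nuclear genes of Arabidopsis that encode the light-harvesting proteins (LHCA and LHCB) and the nuclear subunits of photosystem I (PSA), photosystem II (PSB), the cytochrome b6f complex (PETC), plastocyanin (PETE), leaf ferredoxin (FD2) and its reductase (FNR). The A. lyrata members were found through the A. thaliana ortholog that the deposited annotation lists for each gene model. In this way 48 of the 49 genes were matched to 47 of the 32793 A. lyrata models with counts, and all 49 were among the 32678 A. thaliana genes with counts. LHCB2.2 (AT2G05070) was named by no A. lyrata model, whereas LHCB1.1 (AT1G29920) and LHCB1.2 (AT1G29910) were named by the same model, AL1G42720, which is called LHCB1.1/LHCB1.2 here. All 47 models passed the filter on low counts.

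Poly-A RNA was sequenced in 7 libraries without strand information. They comprised 2 libraries of entire inflorescences, 1 of dissected shoot apices and 2 of entire vegetative rosettes of Arabidopsis lyrata subsp. lyrata MN47, and 2 of vegetative rosettes of A. thaliana Col-0, the laboratory reference strain. All plants were untreated wild types grown in soil in long days (16 h light and 8 h dark). Rosettes and apices were taken at the stage of 5 leaves, the apices after removal of hypocotyl, roots, cotyledons and true leaves, and inflorescences came from the main stem of flowering plants. The time of day of harvest is not given in the sources used here, and nothing states that the libraries of a group came from separate plants, so that p-values measure the spread between these libraries.

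Light-harvesting proteins bind chlorophyll and carotenoids and pass excitation energy to the reaction centres. LHCB1, LHCB2 and LHCB3 form the trimers of the major antenna LHCII, the minor proteins LHCB4, LHCB5 and LHCB6 link the trimers to the core of photosystem II, and the LHCA proteins form the belt of photosystem I. Electrons from water then pass through photosystem II, the cytochrome b6f complex and plastocyanin to photosystem I, and from there through ferredoxin and its reductase to NADPH. The reaction-centre core proteins of both photosystems are plastid-encoded and are not among the members. In rosette leaves these nuclear genes are among the most abundantly transcribed, and many of their promoters are known to be induced by light and by the GLK transcription factors.

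The counted reads per library numbered from 10556736 (shoot apex) to 28347972 (inflorescence 1). Markers of the labelled tissues were at the levels of their labels, with limits for the meristem genes. STM and KNAT1 had 588 and 936 reads in the shoot apex, but CLV3 and WUS, which mark the centre of the meristem, only 3 and 2 reads there. These markers did not set the apex apart from inflorescences. In CPM (reads per 1000000 counted reads), STM was at 55.7 in the apex and at 42.8 and 46.3 in inflorescences. KNAT1 was at 88.7 in the apex and at 56.3 and 57.4 in inflorescences, and WUS had 194 and 265 reads in inflorescences. The summed level of 5 floral organ identity genes was 1284 to 1356 CPM in the inflorescences and at most 12.6 CPM elsewhere. The 4 green leaf markers with a model (RCA, CA1, GAPB and SBPASE) summed to 1131 and 1453 CPM in inflorescences, 1223 CPM in the apex, and 18201 and 12682 CPM in A. lyrata rosettes. The 3 root markers with a model summed to at most 6 reads in any A. lyrata library. In A. thaliana rosettes the 5 root markers summed to 184 and 391 reads, of which the peroxidase gene PRX33, named by no A. lyrata model, had 181 and 384. Both A. lyrata rosette libraries stood apart from each other in most of their clock genes, and this difference is given below beside the results that it touches.

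Members took a far smaller part of the transcriptome in inflorescences and the apex than in rosettes. Of all counted reads, 1.06% and 1.32% in inflorescences, 2.39% in the apex, and 13.2% and 16.6% in A. lyrata rosettes belonged to members. A. thaliana rosettes, with 49 genes instead of 47 models, had 20.6% and 16.0%. Within the members' reads the make-up varied as well. LHCII genes held 26.9% and 28.3% of the members' reads in inflorescences, 38.1% in the apex, and 32.8% and 33.2% in A. lyrata rosettes. Photosystem II subunits held 26.2% and 24.4% in inflorescences, 16.2% in the apex, and 19.5% and 18.2% in A. lyrata rosettes. Among the A. lyrata libraries LHCII thus took its greatest part in the apex and photosystem II in inflorescences. In A. thaliana rosettes LHCII held 38.2% and 35.3% and photosystem II 15.3% and 15.9%. In bulk tissue, fewer green cells and less RNA of these genes per green cell cannot be told apart.

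The promoters of the LHCB4 and LHCB2 families are shown because LHCB4.3 was the member whose call between inflorescences and rosettes departed from those of its paralogs, and because LHCB2.3 differed more between the A. lyrata rosettes than any other member. Each sequence is the 250 bases before the A. thaliana gene start, as the deposited TAIR10 coordinates give it, read 5′ to 3′ on the strand of the gene from the NCBI RefSeq TAIR10.1 genome. Capitals mark matches on either strand to the G-box (CACGTG), the I-box core (GATAAG), the evening element (AAAATATCT) and the CCAAT box (CCAAT), motifs known from light-regulated or clock-regulated promoters. Matches may overlap, and in these windows only the last 2 CCAAT boxes of LHCB2.2, read on opposite strands, did.
LHCB4.1 (chr5:208687-208936, plus strand): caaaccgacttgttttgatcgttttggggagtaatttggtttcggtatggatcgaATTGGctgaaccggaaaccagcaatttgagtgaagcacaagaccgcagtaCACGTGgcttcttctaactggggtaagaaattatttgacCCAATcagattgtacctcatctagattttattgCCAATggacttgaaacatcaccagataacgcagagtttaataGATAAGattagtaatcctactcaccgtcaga
LHCB4.2 (chr3:2717425-2717674, plus strand): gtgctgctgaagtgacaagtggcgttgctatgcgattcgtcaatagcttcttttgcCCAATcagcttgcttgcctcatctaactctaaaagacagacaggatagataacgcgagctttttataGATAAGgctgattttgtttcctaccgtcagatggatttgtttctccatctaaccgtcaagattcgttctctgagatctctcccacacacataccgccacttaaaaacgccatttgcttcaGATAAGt
LHCB4.3 (chr2:16745403-16745652, plus strand): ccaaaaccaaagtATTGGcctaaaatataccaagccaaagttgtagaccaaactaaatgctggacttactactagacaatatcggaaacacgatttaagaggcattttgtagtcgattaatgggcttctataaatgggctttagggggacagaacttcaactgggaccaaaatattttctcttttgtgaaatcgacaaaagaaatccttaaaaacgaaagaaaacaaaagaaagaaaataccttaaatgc
LHCB2.1 (chr2:1824426-1824675, minus strand): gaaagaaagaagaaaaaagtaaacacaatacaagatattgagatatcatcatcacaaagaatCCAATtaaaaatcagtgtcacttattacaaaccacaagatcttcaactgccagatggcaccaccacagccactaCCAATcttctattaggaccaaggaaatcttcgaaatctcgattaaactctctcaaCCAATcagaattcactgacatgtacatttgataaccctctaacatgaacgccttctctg
LHCB2.2 (chr2:1800393-1800642, minus strand): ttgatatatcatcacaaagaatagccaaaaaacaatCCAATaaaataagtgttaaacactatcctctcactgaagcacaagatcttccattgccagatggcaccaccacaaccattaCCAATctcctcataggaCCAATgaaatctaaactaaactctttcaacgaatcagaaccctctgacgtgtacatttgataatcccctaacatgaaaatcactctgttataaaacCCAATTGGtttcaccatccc
LHCB2.3 (chr3:10255697-10255946, plus strand): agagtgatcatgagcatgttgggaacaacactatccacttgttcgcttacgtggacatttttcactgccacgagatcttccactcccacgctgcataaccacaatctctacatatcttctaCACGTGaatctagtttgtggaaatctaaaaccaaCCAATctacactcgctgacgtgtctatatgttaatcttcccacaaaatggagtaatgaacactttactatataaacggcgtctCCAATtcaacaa
LHCB4.1 held 1 G-box, 1 I-box core and 3 CCAAT boxes, and LHCB4.2 held 2 I-box cores and 1 CCAAT box. LHCB4.3 had neither a G-box nor an I-box core and held 1 CCAAT box, which began 237 bases before the start. LHCB2.1 and LHCB2.2 held 3 and 5 CCAAT boxes as their only matches, whereas LHCB2.3 had 1 G-box and 2 CCAAT boxes. Over all 49 members, 36.7% of the windows held a G-box, compared with 7.6% of the windows of 27519 genes of the table. An I-box core was found in 48.98% of the members and in 12.8% of all genes, and a CCAAT box in 81.6% of the members and in 45.6% of all genes. No member's window held an evening element, which 2.27% of all windows did. LHCB4.3 was 1 of 16 members with neither a G-box nor an I-box core. These matches describe the letters only, and A. lyrata promoters were not analysed here.

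**Figure D1:**
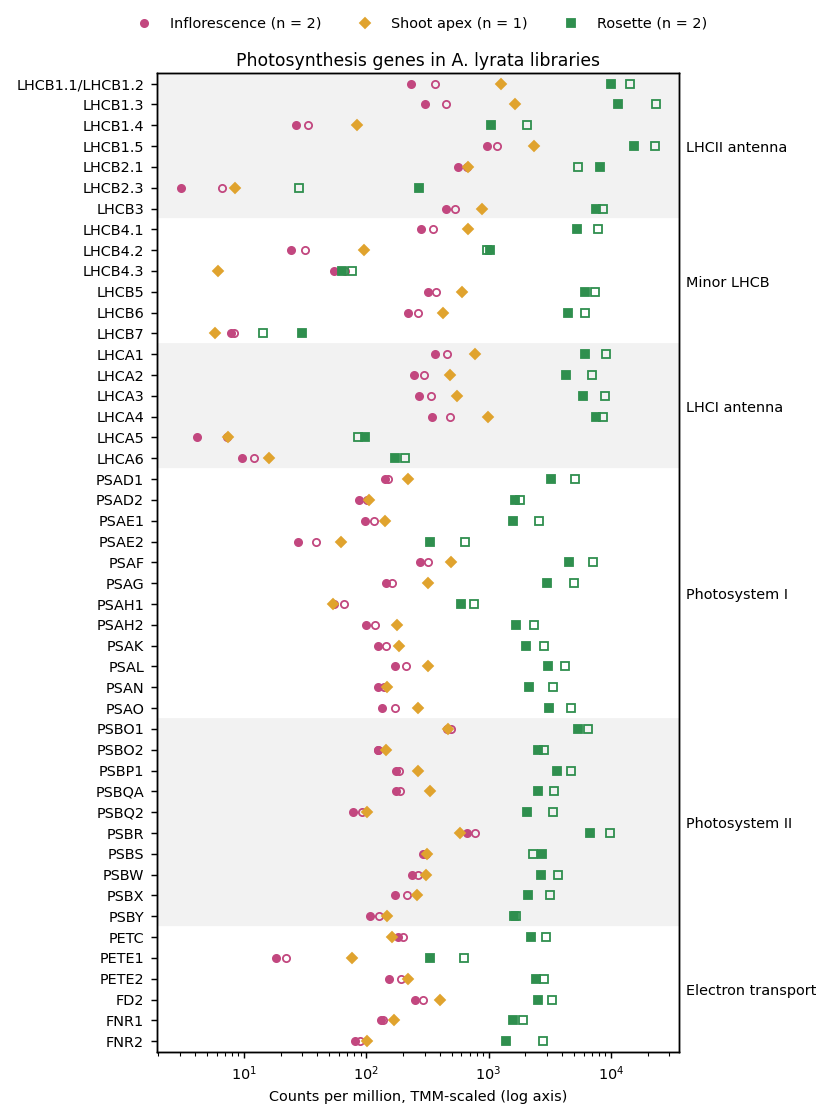
Level of the 47 A. lyrata models in each library, in TMM-scaled CPM (log axis), by role. Filled and open symbols are libraries 1 and 2 of a tissue. For 46 models both inflorescence libraries lay below both rosette libraries, and the exception is LHCB4.3, whose single apex value of 6.17 CPM lay far to the left of the others.

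The first comparison asks how far the genes for the photosynthetic apparatus differ between inflorescences and the vegetative rosette. Of the 47 models, 45 were lower in inflorescences by edgeR's quasi-likelihood test with Benjamini-Hochberg adjustment over all 25465 models tested, and 0 were higher. Among all models tested, 16.7% were called lower and 17.6% higher. The median log2 fold change of the members was -4.21, beside 0.09 over all models. Both inflorescence libraries lay below both rosette libraries for 46 members, compared with 32.8% of all models, and overlapped with them for LHCB4.3. The 2 members that did not pass were the minor antenna genes LHCB4.3 and LHCB7. Called members ranged from PSBS, with a log2 fold change of -3.08, to LHCB1.4, with -5.69.

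Without inflorescence 1 only 3 members (LHCB4.2, LHCA5 and LHCA6) and without inflorescence 2 only 5 (these together with PSAD2 and PSBO2) were called lower, while without either rosette library 46 were. The median log2 fold change stayed between -4.41 and -3.99 when any 1 library was left out. Scaling by library totals without TMM moved the median of all models to 0.68 and the share of calls that were higher to 77.5% (51.3% with TMM). With this scaling 44 members were called lower, with a median of -3.61.

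All 7 LHCII models were lower in inflorescences, and the log2 fold changes of the 4 LHCB1 models ran from -5.69 to -4.16. LHCB1.3 (AT1G29930) had 301 and 449.6 CPM in inflorescences, 1635 CPM in the apex, and 11472 and 23136 CPM in rosettes. LHCB1.1/LHCB1.2 had 234 and 365 CPM in inflorescences, 1276 CPM in the apex, and 10077 and 14216 CPM in rosettes. LHCB1.4 had 26.8 and 33.6 CPM in inflorescences, 83.9 CPM in the apex, and 1055 and 2065 CPM in rosettes. In each of these models both rosette libraries lay far above all others, with the shoot apex between the tissues. LHCB1.5 (AT2G34420), whose model AL4G29210 neighbours that of LHCB1.4, had 975 and 1167 CPM in inflorescences, 2349 CPM in the apex, and 15421 and 22727 CPM in rosettes. The log2 fold change was -5.53 ± 0.59 for LHCB1.3 and -4.16 ± 0.41 for LHCB1.5 (SE; adjusted p = 0.0056 and 0.0047 in edgeR). Whether these changes differ from each other was not tested.

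LHCB2.1 and LHCB2.3 belong to the LHCII type whose phosphorylation is needed for state transitions. Both were lower, but their rosette values differed between libraries. LHCB2.1 had 568 and 664 CPM in inflorescences, 673 CPM in the apex, and 8163 and 5354 CPM in rosettes, a log2 fold change of -3.46 ± 0.36 (adjusted p = 0.0054 in edgeR). LHCB2.3 had 3.05 and 6.61 CPM in inflorescences, 8.47 CPM in the apex, and 270.3 and 28.2 CPM in rosettes, with a change of -4.95 ± 1.29 (adjusted p = 0.047). In edgeR the call of LHCB2.3 was lost with library totals alone (adjusted p = 0.0505), without a filter on low counts (0.0503) and with the replicate number as a block (0.11), and its log2 fold change was -2.55 without rosette 1. LHCB3, a trimer subunit that lacks the phosphorylation site, had 445 and 528 CPM in inflorescences, 879.8 CPM in the apex, and 7586 and 8675 CPM in rosettes, and its groups did not overlap.

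Among the minor antenna genes, LHCB4.3 was not called, whereas both of its paralogs were lower. LHCB4.3 (AT2G40100), a divergent isoform that has also been named LHCB8, is encoded by AL4G36190 on scaffold 4 of the A. lyrata assembly, between bases 19539323 and 19540927. It had 1747 and 2031 reads in inflorescences, 86 in the apex, and 730 and 734 in rosettes. On the TMM scale these were 55.0 and 66.8 CPM in inflorescences, 6.17 CPM in the apex, and 63.1 and 76.2 CPM in rosettes. Both inflorescence values lay close to the rosette values, and 1 of them lay between these. Its log2 fold change between inflorescences and rosettes was -0.19 ± 0.19 (adjusted p = 0.46 in edgeR), with adjusted p between 0.13 and 0.94 over all alternatives. The sign was positive (0.40) with library totals alone.

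LHCB4.1 and LHCB4.2, the main isoforms of the antenna protein CP29, were both lower. LHCB4.1 had 280.1 and 351 CPM in inflorescences, 686 CPM in the apex, and 5326 and 7904 CPM in rosettes. LHCB4.2 had 24.1 and 31.6 CPM in inflorescences, 96.4 CPM in the apex, and 1024 and 980.3 CPM in rosettes, and its log2 fold change of -5.17 ± 0.26 (adjusted p = 0.0025 in edgeR) was the most negative outside LHCB1. LHCB7, a member known only at low levels, had 7.900 and 8.25 CPM in inflorescences, 5.81 CPM in the apex, and 29.9 and 14.4 CPM in rosettes. Its log2 fold change of -1.46 ± 0.40 did not pass (adjusted p = 0.053 in edgeR), while DESeq2 called it lower (adjusted p = 0.018). LHCB6, which encodes CP24, had 221 and 266 CPM in inflorescences, 425 CPM in the apex, and 4471 and 6151 CPM in rosettes. LHCB5, which encodes CP26, had 319.5 and 375 CPM in inflorescences, 609 CPM in the apex, and 6109.6 and 7406 CPM in rosettes.

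All 6 LHCI genes were lower in inflorescences, with log2 fold changes from -4.63 (LHCA3) to -3.99 (LHCA5). LHCA1 had 363 and 456 CPM in inflorescences, 776 CPM in the apex, and 6116 and 9045 CPM in rosettes. LHCA4, its partner in a dimer of the belt, had 345 and 485 CPM in inflorescences, 998 CPM in the apex, and 7596 and 8671 CPM in rosettes. Both were called lower, and in each tissue their levels were close to each other. LHCA2 had 244 and 295 CPM in inflorescences, 482 CPM in the apex, and 4271 and 7069 CPM in rosettes. LHCA3, which pairs with LHCA2, had 268 and 338 CPM in inflorescences, 550.3 CPM in the apex, and 5963 and 8990.5 CPM in rosettes. LHCA5 and LHCA6, which link photosystem I to the NDH complex of cyclic electron flow, were far lower in every tissue. LHCA5 had 4.19 and 7.30 CPM in inflorescences, 7.39 CPM in the apex, and 97.5 and 85.2 CPM in rosettes. LHCA6 had 9.63 and 12.1 CPM in inflorescences, 16.1 CPM in the apex, and 173 and 209 CPM in rosettes. Their changes of -3.99 ± 0.34 and -4.14 ± 0.22 were of the size seen for the abundant LHCA genes (adjusted p = 0.0037 and 0.0025 in edgeR).

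Each of the 12 photosystem I subunit genes was lower, with a median log2 fold change of -4.26. PSAF, which encodes the docking subunit for plastocyanin, had 273 and 318 CPM in inflorescences, 498 CPM in the apex, and 4561 and 7090.1 CPM in rosettes. PSAG, which helps to bind the antenna belt, had 145 and 162 CPM in inflorescences, 321 CPM in the apex, and 2984 and 4976 CPM in rosettes. The stromal subunits PSAD and PSAE, which form the ferredoxin docking site, and PSAH, which takes part in docking of mobile LHCII, each have 2 genes. PSAD1 had 142 and 152 CPM in inflorescences, 220.5 CPM in the apex, and 3230.0 and 5063 CPM in rosettes. PSAD2 had 87.0 and 102 CPM in inflorescences, 105 CPM in the apex, and 1659.7 and 1807 CPM in rosettes. The log2 fold changes of the pair were -4.82 ± 0.37 for PSAD1 and -4.20 ± 0.24 for PSAD2 (SE; adjusted p = 0.0030 and 0.0025 in edgeR). PSAE1 had 97.7 and 115 CPM in inflorescences, 142 CPM in the apex, and 1587 and 2572 CPM in rosettes. PSAE2, whose model overlaps a neighbouring model, had 27.6 and 38.6 CPM in inflorescences, 62.4 CPM in the apex, and 331 and 641 CPM in rosettes. In both PSAE genes the groups did not overlap, and PSAE1 was the higher one in every library. PSAH2 had 99.3 and 118 CPM in inflorescences, 179.9 CPM in the apex, and 1665 and 2357 CPM in rosettes. PSAH1 had 54.7 and 66.1 CPM in inflorescences, 53.4 CPM in the apex, and 601 and 767 CPM in rosettes, with the smallest change of the photosystem I genes (-3.50 ± 0.25, adjusted p = 0.0028 in edgeR). The other subunit genes (PSAK, PSAL, PSAN and PSAO) had log2 fold changes from -4.67 to -4.18.

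The 10 photosystem II genes were lower as well, with a median log2 fold change of -3.78. PSBR, a lumenal subunit of photosystem II, had 667 and 768 CPM in inflorescences, 589 CPM in the apex, and 6759.5 and 9842 CPM in rosettes. PSBX, a small membrane subunit, had 173 and 214 CPM in inflorescences, 263 CPM in the apex, and 2088 and 3154 CPM in rosettes. PSBO stabilises the manganese cluster and PSBQ belongs to the same extrinsic complex. PSBO1, the more abundant of its pair in every library, had 457 and 490.4 CPM in inflorescences, 467 CPM in the apex, and 5407 and 6551 CPM in rosettes. PSBO2 had 124 and 125 CPM in inflorescences, 144 CPM in the apex, and 2524 and 2842 CPM in rosettes. Their log2 fold changes were -3.66 ± 0.29 and -4.43 ± 0.25 (SE; adjusted p = 0.0031 and 0.0025 in edgeR). PSBQA, which lies in a model noted as holding a transposable element, had 175 and 188 CPM in inflorescences, 334 CPM in the apex, and 2555 and 3449 CPM in rosettes. PSBQ2 had 78.5 and 92.9 CPM in inflorescences, 102 CPM in the apex, and 2068 and 3391 CPM in rosettes. PSBQ2 had the most negative change of the group (-4.99 ± 0.39, adjusted p = 0.0031 in edgeR). PSBS, the sensor of lumen acidity in non-photochemical quenching, had 293 and 306 CPM in inflorescences, 312 CPM in the apex, and 2755 and 2321 CPM in rosettes, the smallest change of any called member (-3.08 ± 0.24, adjusted p = 0.0032 in edgeR).

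The 6 genes of electron transport had a median log2 fold change of -3.85 and were all called. FD2, the main leaf ferredoxin, had 250.3 and 290.1 CPM in inflorescences, 404 CPM in the apex, and 2559 and 3282 CPM in rosettes. PETC, the Rieske protein of the cytochrome b6f complex, had 182 and 199 CPM in inflorescences, 163 CPM in the apex, and 2202 and 2941 CPM in rosettes. Plastocyanin is encoded by PETE1 and PETE2. PETE2 had 153 and 191 CPM in inflorescences, 222 CPM in the apex, and 2444 and 2864 CPM in rosettes. PETE1 had 18.3 and 21.96 CPM in inflorescences, 76.8 CPM in the apex, and 329.7 and 627 CPM in rosettes. Ferredoxin-NADP reductase is encoded by FNR1 and FNR2 in leaves. FNR1 had 133 and 138 CPM in inflorescences, 169 CPM in the apex, and 1592 and 1915 CPM in rosettes. FNR2 had 81.6 and 89.6 CPM in inflorescences, 101 CPM in the apex, and 1385 and 2789 CPM in rosettes. FNR2 was 2.01-fold and FNR1 1.203-fold higher in rosette 2 than in rosette 1. The changes were -4.61 ± 0.46 for FNR2 and -3.70 ± 0.24 for FNR1 (SE; adjusted p = 0.0049 and 0.0025 in edgeR).

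**Figure D2:**
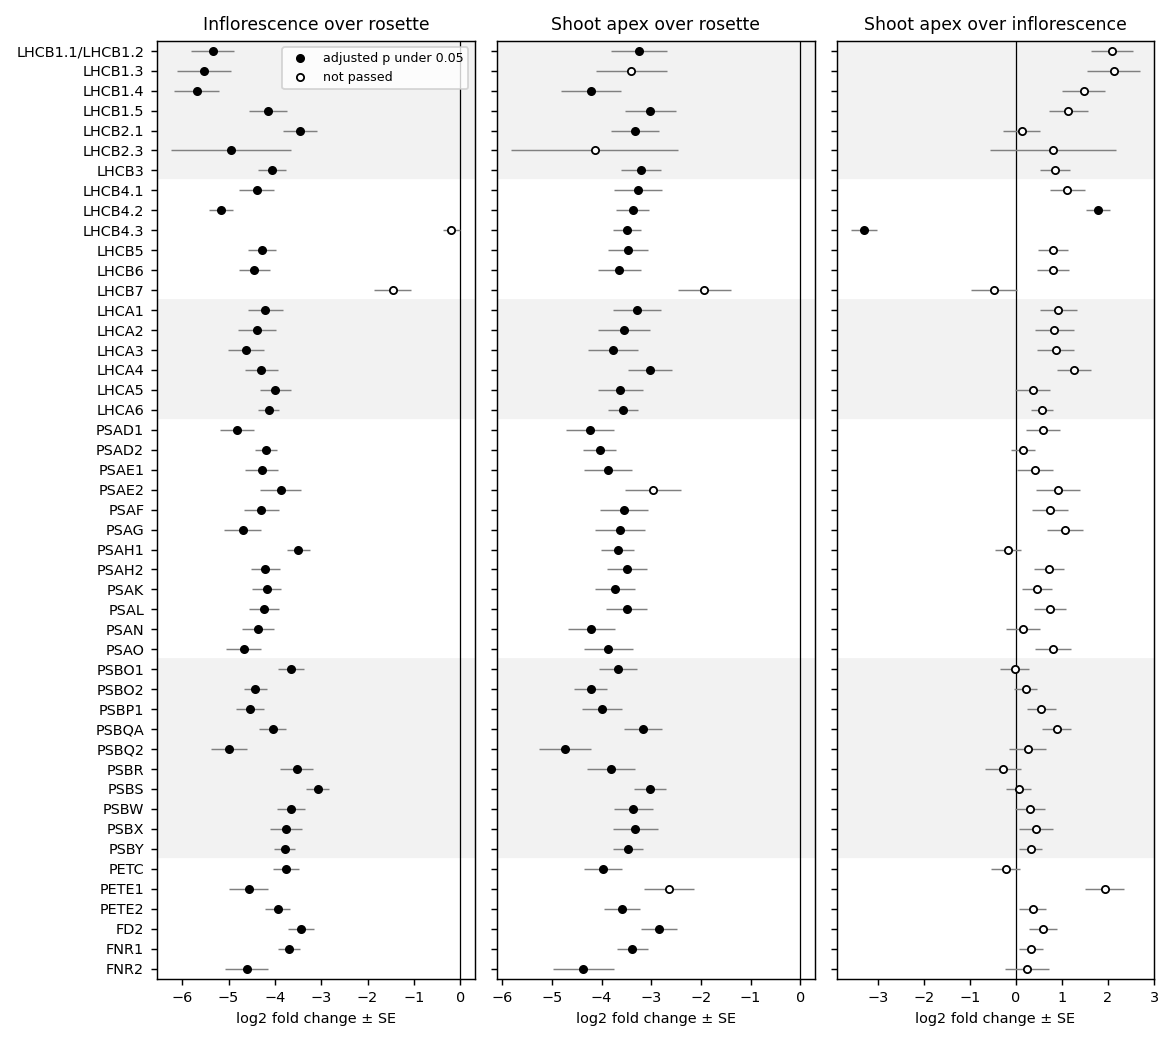
Log2 fold change with its SE (derived from the F statistic) for the 47 models in 3 comparisons of A. lyrata tissues, by edgeR. Shaded and white blocks are, from the top, LHCII, minor LHCB, LHCI, photosystem I, photosystem II and electron transport. LHCB4.3 lies at -0.19 in inflorescences over rosettes and at -3.49 in the shoot apex over rosettes.

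The second comparison asks how the dissected shoot apex differs from the whole rosette of the same age. Of the 47 models, 42 were lower in the shoot apex and 0 were higher, by edgeR with adjustment over all models. The share called lower among all models tested was 6.03%, and 2.11% were called higher. The median log2 fold change was -3.55 for the members and 0.00 over all models. In all 47 the apex value lay below both rosette values, which was the case for 38.2% of all models. The members that did not pass were LHCB1.3, LHCB2.3, LHCB7, PSAE2 and PETE1, with adjusted p between 0.055 and 0.19 in edgeR.

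With only 1 apex library, the spread in this comparison comes from the other tissues. The calls depended on the libraries and the fit: with the replicate number as a block, without inflorescence 1 or without inflorescence 2, and in a fit of the 3 libraries of these 2 tissues, 0 members and 0 of all models were called, while 46 and 47 were called without rosette 1 and without rosette 2. In the fit of the 3 libraries the median log2 fold change was -3.48. With library totals alone, the share of calls that were higher was 83.0% (26.0% with TMM), 45 members were called lower, and their median was -2.74.

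Changes ranged from -1.93 for LHCB7 to -4.74 for PSBQ2. LHCB4.3, not called between inflorescences and rosettes, was lower in the apex, with a log2 fold change of -3.49 ± 0.28 (adjusted p = 0.032 in edgeR). The values of its paralogs were close to it here, with -3.27 ± 0.48 for LHCB4.1 and -3.38 ± 0.32 for LHCB4.2 (adjusted p = 0.038 and 0.032). Photosystem I genes had a median of -3.70, LHCI genes -3.56, photosystem II genes -3.58, electron transport genes -3.48, minor LHCB genes -3.42 and LHCII genes -3.33. These medians lay closer together than in inflorescences, where they ran from -4.95 (LHCII) to -3.78 (photosystem II). Among the genes of electron transport, FNR2 had a log2 fold change of -4.37 ± 0.62 and PETE1 of -2.64 ± 0.51 (adjusted p = 0.036 and 0.055 in edgeR).

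The apex and the inflorescences, both low in these genes, were also compared with each other. Of 47 models, 41 had an apex value above both inflorescence values and 5 below both, compared with 43.2% and 49.7% of all models. Only LHCB4.2 was called higher, with a log2 fold change of 1.79 ± 0.26 (adjusted p = 0.027 in edgeR), and only LHCB4.3 was called lower (-3.30 ± 0.28, adjusted p = 0.0091). Among all models tested, 3.99% were called higher in the apex and 8.74% lower. The median over the members was 0.58, beside -0.08 over all models. LHCB1.1/LHCB1.2 and LHCB1.3 had the largest positive values, 2.09 ± 0.45 and 2.12 ± 0.57, but did not pass (adjusted p = 0.056 and 0.082 in edgeR). PETE1 was similar, with 1.93 ± 0.43 (adjusted p = 0.059).

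The number of members called here depended on the fit. A fit of only these 3 libraries called 24 higher and 1 lower, DESeq2 called 12 higher and 1 lower, and without inflorescence 1 or 2 no member was called in edgeR. Without rosette 1 and without rosette 2, 21 were called higher and 1 lower. With library totals alone the share of calls that were higher was 43.0% (31.3% with TMM). Among all models, the fit of only these 3 libraries called 5259 of 26057 higher and 7130 lower. DESeq2 called 1816 of 24693 models higher and 3314 lower. LHCB4.3 had log2 fold changes from -3.38 to -3.09 over all alternatives, with adjusted p up to 0.087 (edgeR without inflorescence 2). LHCB4.2 was at 1.67 to 2.06, with adjusted p up to 0.27.

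Isoforms of the same complex were compared as shares of the reads of their family in each library, which do not depend on scaling between libraries. They do depend on exon length, which differs between genes and between the annotations of the species. In the LHCB4 family, LHCB4.3 held 15.3% and 14.9% in inflorescences, 0.783% in the apex, 0.984% and 0.850% in A. lyrata rosettes, and 1.26% and 0.788% in A. thaliana rosettes. The exact 95% interval, which covers counting error only, was 14.7% to 16.0% in inflorescence 1 and 0.627% to 0.966% in the shoot apex. LHCB4.2 held 6.72% and 7.03% in inflorescences, 12.2% in the apex, 16.0% and 10.9% in A. lyrata rosettes, and 40.0% and 39.3% in A. thaliana rosettes. Both inflorescence libraries thus had more reads of LHCB4.3 than of LHCB4.2, and every rosette library and the apex had fewer. With 2 libraries against 2, the smallest exact two-sided permutation p is 0.333, and shares were not tested.

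In the LHCB1 family, LHCB1.5 held the greatest part in every A. lyrata library but 1. Its share was 63.5% and 57.9% in inflorescences, 44.0% in the apex, 40.6% and 36.6% in A. lyrata rosettes, and 17.1% and 18.2% in A. thaliana rosettes. LHCB1.3 held 19.6% and 22.3% in inflorescences, 30.6% in the apex, 30.2% and 37.2% in A. lyrata rosettes, and 37.4% and 43.2% in A. thaliana rosettes, and exceeded LHCB1.5 in rosette 2. LHCB1.1/LHCB1.2 held 15.2% and 18.1% in inflorescences, 23.9% in the apex, and 26.5% and 22.9% in A. lyrata rosettes. In A. thaliana, where these 2 genes are counted apart, LHCB1.1 held 19.8% and 18.9% and LHCB1.2 held 15.7% and 12.2%. LHCB1.4 held 1.75% and 1.67% in inflorescences, 1.57% in the apex, 2.77% and 3.32% in A. lyrata rosettes, and 9.94% and 7.48% in A. thaliana rosettes.

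The coding sequences of the A. thaliana LHCB1 genes are between 87.0% and 96.4% identical, and reads that aligned to more than 1 place were not used by the authors. In the TAIR10.1 genome, 95.6% to 98.5% of the 100-base windows in exons of the 5 LHCB1 genes occur once, 89.3% for LHCB2.1 and 86.4% for LHCB2.2, and over 99% for the other 42 members. Counts of LHCB1, LHCB2.1 and LHCB2.2 can therefore be low by the part of their reads that is not unique. In A. lyrata the shared windows were not computed. Reads of the inflorescences were shorter than those of the apex and rosettes, and windows of that shorter length were not computed. Read length and tissue thus cannot be told apart between inflorescences and the other libraries. The part of read length in the shares and log2 fold changes of LHCB1 and LHCB2 was not tested.

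LHCB2.1 held nearly all reads of the 2 LHCB2 models in A. lyrata, from 96.8% (rosette 1) to 99.5% (rosette 2), with LHCB2.3 as the remainder. LHCB2.2 is named by no A. lyrata model, so its share there is not known and the shares of the species cover unlike sets. In A. thaliana the reads were spread over 3 genes, with 39.9% and 46.7% for LHCB2.1, 39.3% and 39.2% for LHCB2.2, and 20.8% and 14.03% for LHCB2.3. In the PSBQ family, PSBQ2 held 31.0% and 33.1% in inflorescences, 23.4% in the apex, 44.7% and 49.6% in A. lyrata rosettes, and 62.6% and 67.4% in A. thaliana rosettes. Per kb of exon its rosette shares were closer, 51.9% and 56.7% in A. lyrata and 56.7% and 61.8% in A. thaliana. PSBO2 held 21.4% and 20.3% in inflorescences, 23.6% in the apex, 31.8% and 30.3% in A. lyrata rosettes, and 23.8% and 21.1% in A. thaliana rosettes of the PSBO reads. These 2 isoforms had smaller shares in inflorescences and in the apex than in A. lyrata rosettes, with no overlap between the libraries.

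The subunit families of photosystem I and of electron transport have a pair of genes each. PSAD2 held 38.0% and 40.2% in inflorescences, 32.3% in the apex, 33.9% and 26.3% in A. lyrata rosettes, and 39.2% and 36.0% in A. thaliana rosettes. PSAE2 held 22.00% and 25.2% in inflorescences, 30.5% in the apex, 17.3% and 20.0% in A. lyrata rosettes, and 20.1% and 18.3% in A. thaliana rosettes. PSAH1 held 35.5% and 35.8% in inflorescences, 22.9% in the apex, 26.5% and 24.6% in A. lyrata rosettes, and 35.1% and 36.5% in A. thaliana rosettes. Per kb of exon, the rosette shares of PSAH1 were in the opposite order, 28.2% and 26.2% in A. lyrata and 22.6% and 23.7% in A. thaliana. That order rests on an A. thaliana exon length of 1300 bases from TAIR10.1. This length exceeds the whole counted TAIR10 gene (bases 5468509 to 5469481), which also overlaps a neighbour. These shares therefore cannot settle the order of the species in PSAH1. PSAD2, PSAE2 and PSAH1 were the minor isoforms in every library. PETE1 held 10.7% and 10.3% in inflorescences, 25.7% in the apex, 11.9% and 18.0% in A. lyrata rosettes, and 9.28% and 6.07% in A. thaliana rosettes of the plastocyanin reads. FNR1 held 61.9% and 60.6% in inflorescences, 62.5% in the apex, 53.5% and 40.7% in A. lyrata rosettes, and 57.1% and 51.0% in A. thaliana rosettes. In both inflorescences the shares of PSAD2, PSAE2, PSAH1 and FNR1 were above, and that of PETE1 was below, those in both A. lyrata rosettes. Among LHCA genes, LHCA1 held 29.4% and 28.6% in inflorescences, 27.4% in the apex, 25.3% and 26.6% in A. lyrata rosettes, and 29.3% and 25.9% in A. thaliana rosettes.

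**Figure D3:**
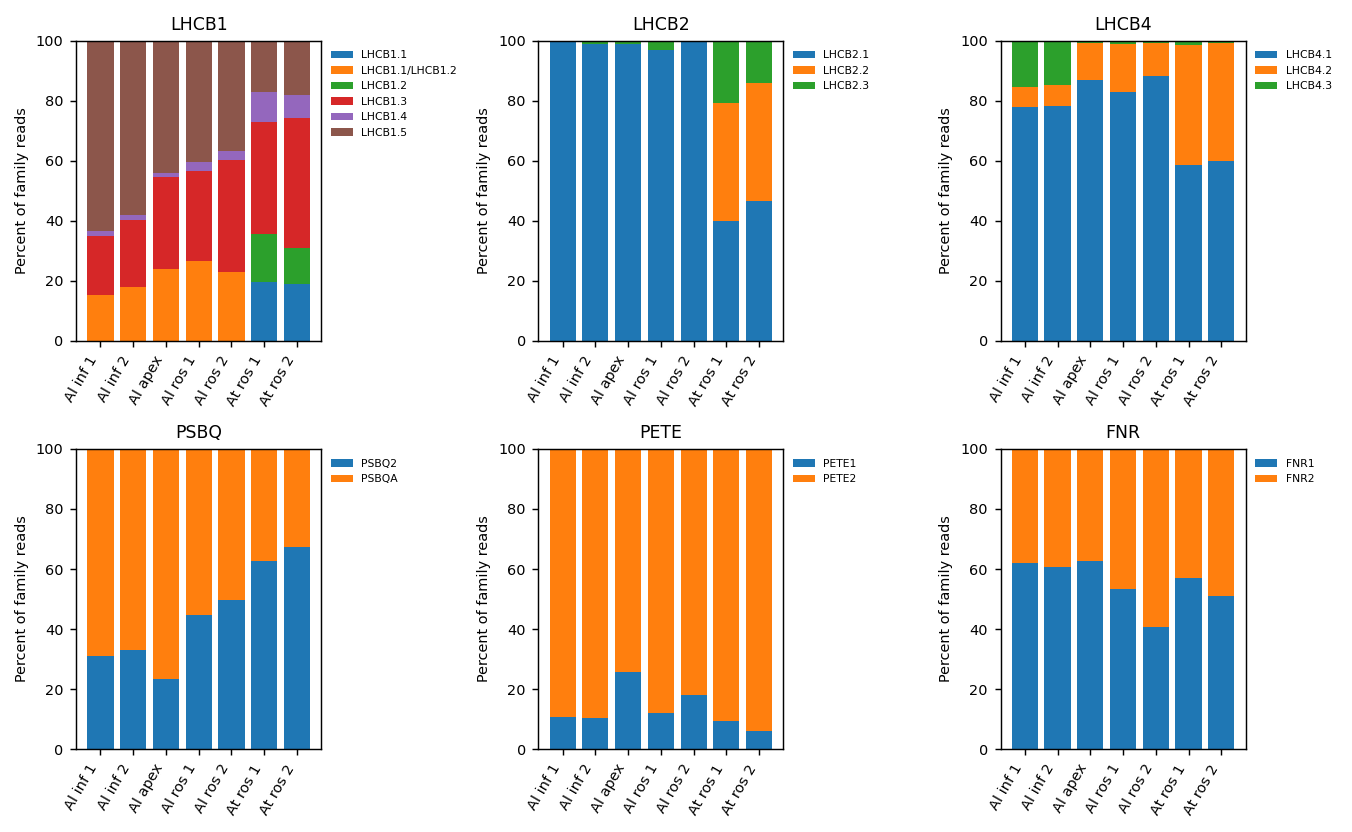
Share of each paralog in the reads of its family, in percent, for 6 families and all 7 libraries (Al, A. lyrata; At, A. thaliana; inf, inflorescence; ros, rosette). LHCB4.3 takes 15.3% and 14.9% of LHCB4 reads in the inflorescences and at most 1.26% elsewhere.

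Levels of different genes were compared per length, as CPM per kb of exon without TMM. In A. lyrata rosettes, LHCB1.5 came first with a mean of 14173 (12172 and 16175 in the libraries), followed by LHCB1.3 with 12574 (8922 and 16226) and LHCB1.1/LHCB1.2 with 8579 (7552 and 9606). The ranges of neighbours in this order overlap. LHCB3 (5796), LHCB2.1 (4684), LHCB1.4 (1095) and LHCB2.3 (126) came after them, and the first 2 of these also overlapped. Among minor antenna genes LHCB6 (3907), LHCB4.1 (3673) and LHCB5 (3238) each overlapped with the next, and LHCB4.2 (705), LHCB4.3 (50.3) and LHCB7 (13.9) were each apart from the next. LHCA1 (6037), LHCA4 (5484), LHCA3 (4704) and LHCA2 (3608) each overlapped with the next as well, and LHCA6 (144) and LHCA5 (82.1) stood far below. Within each library, LHCB1.3 lay above LHCB1.1/LHCB1.2, LHCB6 above LHCB4.1, LHCB4.1 above LHCB5, LHCA4 above LHCA3 and LHCA3 above LHCA2. The order switched between the libraries for LHCB1.5 and LHCB1.3, for LHCB3 and LHCB2.1, and for LHCA1 and LHCA4.

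For the core subunits the range was narrower. Photosystem I genes ran from PSAF (4199 CPM per kb), PSAD1 (4103), PSAG (3958) and PSAO (3851), which overlapped, to PSAE2 (377). Within each library PSAF lay above PSAD1 and PSAD1 above PSAG, while PSAG and PSAO switched. Photosystem II genes ran from PSBR (6423) and PSBO1 (3688) to PSBY (1536). Genes of electron transport ran from FD2 (3162) and PETE2 (2670) to PETE1 (454). In the inflorescences LHCB1.5 (1209 CPM per kb) again came first among LHCII genes, but LHCB2.1 (635) and LHCB3 (524) came next, before LHCB1.3 (418), while in the apex the order of the first 3 was that of the rosettes. Without division by length, 33 of 47 models kept their rank within their role group in rosettes.

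The 2 A. lyrata rosettes differed in these genes and, much more, in most clock genes. Of the 47 models, 41 were higher in rosette 2 and 6 in rosette 1 on the TMM scale (CPM plus 0.5). Of 20470 models above 1 CPM, 10320 were higher in rosette 2 and 10150 in rosette 1. The median log2 ratio of rosette 2 over rosette 1 was 0.46 for the members and 0.01 over these 20470 models. All 12 photosystem I genes and all 6 genes of electron transport were higher in rosette 2. The 6 models higher in rosette 1 were LHCB2.1, LHCB2.3, LHCB4.2, LHCB7, LHCA5 and PSBS. LHCB2.3 had 3127 reads in rosette 1 and 272 in rosette 2, a 9.43-fold difference on the TMM scale that 1.25% of all models exceeded in either direction. For LHCB7 the difference was 2.04-fold and for LHCB2.1 1.52-fold. In the other direction, LHCB1.3 and FNR2 were 2.02-fold and 2.01-fold higher in rosette 2.

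In markers of tissues these libraries differed too. Of the 4 green leaf markers, 3 were higher in rosette 1, with a median log2 ratio of rosette 2 over rosette 1 of -0.32, opposite in sign to that of the members. KNAT1 had 46 reads in rosette 1 and 0 in rosette 2, STM 10 and 0, and the floral gene SEP3 62 and 5. Their part in the differences between members was not tested.

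Of 10 clock genes in 2 lists, 8 differed between these libraries by 12.2-fold (RVE8) to 45.6-fold (TOC1) on the TMM scale. PRR7 and GI differed by 1.34-fold and 1.94-fold, which 43.7% and 16.6% of all models exceeded. The 5 morning genes were higher in rosette 1, among them CCA1 with 45.9 CPM in rosette 1 and 1.35 CPM in rosette 2, and LHY with 31.0 and 1.199 CPM. The 5 evening genes were higher in rosette 2, among them TOC1 with 7.89 CPM in rosette 1 and 340.4 CPM in rosette 2. In the inflorescences LHY was at 737 and 761 CPM and TOC1 at 16.0 and 16.5 CPM, and in the shoot apex LHY was at 17.7 CPM and TOC1 at 63.8 CPM. Morning clock genes as a list summed to 1048 and 1078 CPM in inflorescences, 257 CPM in the apex, and 314 and 105 CPM in rosettes. Evening genes summed to 123 and 126 CPM in inflorescences, 198 CPM in the apex, and 87.8 and 645 CPM in rosettes. PRR7 was the only gene of these lists called between inflorescences and rosettes (-1.06 ± 0.21, adjusted p = 0.024 in edgeR). The part of clock genes in the differences between tissues was not tested. In the inflorescence libraries all 47 models were higher in library 2, by a median of 0.24 on the log2 scale, beside -0.006 over all models above 1 CPM in rosettes.

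**Figure D4:**
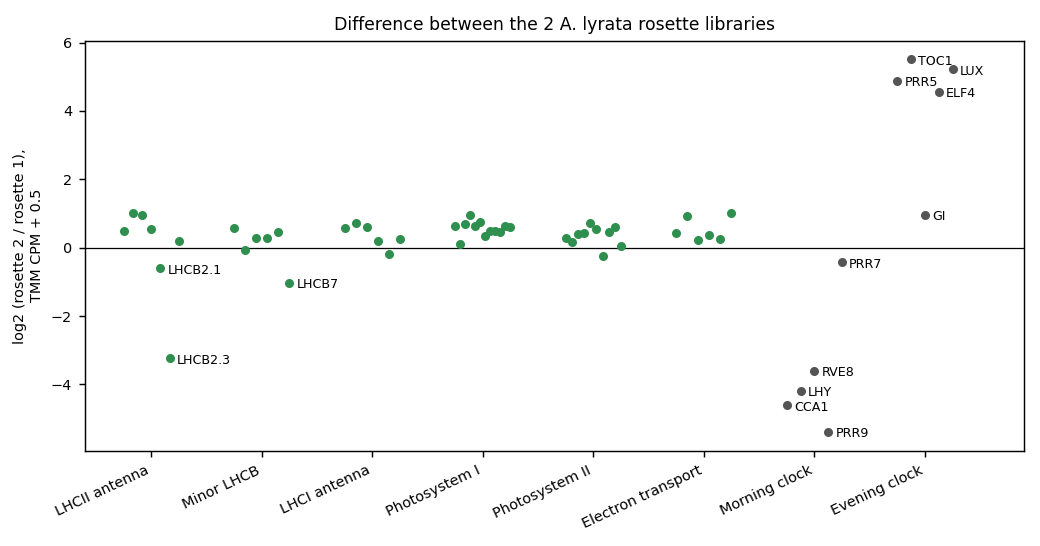
Log2 ratio of A. lyrata rosette 2 over rosette 1 (TMM-scaled CPM plus 0.5) for each member by role, in green, and for 10 clock genes, in grey. LHCB2.3 lies at -3.24 and the members' median at 0.46, while the clock genes reach from -5.39 (PRR9) to 5.51 (TOC1).

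The last comparison sets rosettes of A. lyrata against those of A. thaliana in 46 pairs of 1 model and 1 gene, with an offset for exonic length. No member was called: 0 of 46 passed in edgeR, while among the 17235 pairs tested 6.2% were called higher in A. lyrata and 3.74% lower. At an unadjusted p under 0.05 in edgeR, 5 of 46 members and 5290 of all 17235 pairs passed. DESeq2 called 1 member higher (PSBS) and 5 lower (LHCB1.4, LHCB2.3, LHCB4.2, LHCB5 and LHCA5). Of all 17235 pairs, DESeq2 called 2014 higher and 1406 lower. The median log2 fold change was -0.12 for the members and -0.003 over all pairs. In length-scaled CPM, both libraries of A. lyrata were below both of A. thaliana for 12 members and above them for 4 (LHCB2.1, PSAH1, PSBS and FNR2), and overlapped for 30. Of all pairs, 30.8% were below and 31.7% above. LHCB2.1 was compared without LHCB2.2, which no A. lyrata model names. For LHCB2.1, PSAH1 and PSBS the A. thaliana exon length (1406, 1300 and 1808 bases in TAIR10.1) exceeds the counted TAIR10 gene, which lowers the A. thaliana level. In CPM without length, PSAH1 was lower in A. lyrata (481 and 554 against 765 and 712). LHCB2.1 then overlapped (6540 and 3868 against 3844 and 3988), and PSBS and FNR2 stayed above. Species, genome assembly and annotation cannot be told apart here.

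The lowest adjusted p were those of LHCA5 and LHCB4.2. On the scale of length-scaled CPM, LHCA5 had 88.4 and 78.3 in A. lyrata, against 176 and 174 in A. thaliana, a log2 fold change of -1.07 ± 0.26 (adjusted p = 0.068 in edgeR). Its A. thaliana gene overlaps a neighbour, and reads of the 2 strands were not separated. LHCB4.2 had 929 and 902 in A. lyrata, against 3987 and 2357 in A. thaliana, a change of -1.79 ± 0.44 (adjusted p = 0.071), which passed with library totals alone (adjusted p = 0.045). Its A. thaliana gene overlaps another too. LHCB4.1 had 4363 and 6569 in A. lyrata, against 6476 and 3972 in A. thaliana, with a change of 0.07 ± 0.50. LHCB4.2 held 16.0% and 10.9% of the LHCB4 reads in A. lyrata, against 40.0% and 39.3% in A. thaliana.

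LHCB2.3 had 273 and 28.9 in A. lyrata, against 2041 and 1061 in A. thaliana, a log2 fold change of -3.36 ± 1.13 (adjusted p = 0.13 in edgeR), and passed without A. lyrata rosette 1 (-5.72, adjusted p = 0.021) and in DESeq2 (-3.37, adjusted p = 0.0012). LHCB1.4 had 945 and 1877 in A. lyrata, against 6773 and 3000.2 in A. thaliana, a change of -1.79 ± 0.63 (adjusted p = 0.14). LHCB5 had 4626 and 5688 in A. lyrata, against 11239 and 8724 in A. thaliana, and its change was -0.95 ± 0.45 (adjusted p = 0.23). PSBS had 2939 and 2512 in A. lyrata, against 1529 and 1250.3 in A. thaliana, the most positive value of the members (0.97 ± 0.38, adjusted p = 0.16 in edgeR). Its log2 fold change ran from 0.37 to 1.12 over all alternatives, which include other length offsets. FNR2 was at 1282 and 2619 in A. lyrata, against 1062 and 1046 in A. thaliana. The SE of the log2 fold change ran from 0.26 (LHCA5) to 1.13 (LHCB2.3) over the members. The A. thaliana rosettes had CCA1 at 24.0 and 89.4 CPM and TOC1 at 28.5 and 22.3 CPM, unlike A. lyrata rosette 2.

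**Figure D5:**
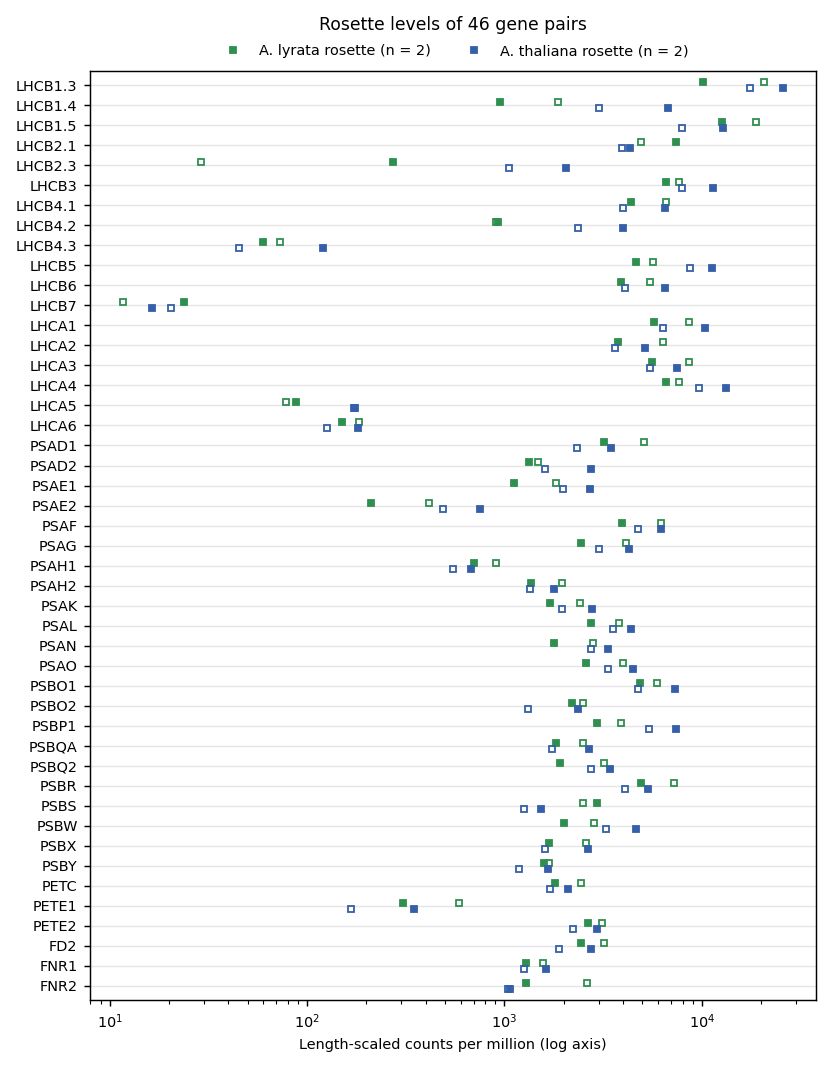
Rosette levels of 46 ortholog pairs in length-scaled CPM (log axis), with the A. lyrata libraries above those of A. thaliana in each row. Filled and open symbols are libraries 1 and 2. LHCB2.3, LHCB1.4, LHCB4.2 and LHCA5 lie lower in both A. lyrata libraries, and 30 of the 46 pairs overlap.

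Genes around the members were taken from lists of the same pathways. Of all models, 16.7% were called lower and 17.6% higher in inflorescences over rosettes. In inflorescences over rosettes, 11 of 12 assembly factors and other subunits, 19 of 20 genes of chlorophyll synthesis, all 5 of import and insertion of LHC proteins, 3 of 4 of ATP synthase, 5 of 6 thylakoid kinases, phosphatases and xanthophyll enzymes and 5 of 6 plastid sigma factors were lower in edgeR, and none was higher. Their medians were -3.82, -2.69, -2.73, -3.51, -2.05 and -2.70 on the log2 scale. The most negative were PNSL1 (-6.13 ± 0.33), a subunit of the NDH complex, and PORB (-5.19 ± 0.64), a protochlorophyllide oxidoreductase, with adjusted p = 0.0025 and 0.0077. In the other lists the most negative called genes were the ATP synthase subunit gene ATPC1 (-4.29 ± 0.25), the sigma factor gene SIG4 (-3.99 ± 0.52), the violaxanthin de-epoxidase gene VDE (-3.81 ± 0.62) and LTD, which acts in import of LHC proteins (-3.01 ± 0.18), with adjusted p of 0.0025 to 0.015. In the list of other ferredoxins and cyclic flow, 7 of 9 were lower, with TIC62, which tethers FNR to membranes, at -4.16 ± 0.23 (adjusted p = 0.0025), and FD3, a ferredoxin of roots, was higher (0.86 ± 0.14, adjusted p = 0.015 in edgeR).

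Regulators differed in direction. GLK1, an activator of photosynthesis genes, had 3.39 and 6.99 CPM in inflorescences, 89.99 CPM in the apex, and 296 and 248 CPM in A. lyrata rosettes, without TMM. It was lower in inflorescences than in rosettes (-6.30 ± 0.45, adjusted p = 0.0028 in edgeR) and higher in the apex than in inflorescences (3.92 ± 0.43, adjusted p = 0.016). HY5, an activator of light responses, was higher in inflorescences than in rosettes (1.199 ± 0.26, adjusted p = 0.031 in edgeR), and the other 3 regulators (GLK2, GNC and CGA1) were lower there. In the apex over rosettes, 1 of the 5 regulators passed, GNC, with -1.55 ± 0.25 (adjusted p = 0.043).

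Of 8 relatives of the light-harvesting proteins, many of which respond to light stress, 6 were lower in inflorescences, beside 16.7% of all models. Among these 6 was the stress-enhanced protein SEP1 with -2.65 ± 0.22 (adjusted p = 0.0033 in edgeR). ELIP1, an early light-induced protein that was singled out after its values were seen, had 453 and 409 CPM in inflorescences, 24.9 CPM in the apex, and 38.3 and 1.72 CPM in A. lyrata rosettes, and did not pass (3.90 ± 1.37, adjusted p = 0.094). Its 2 rosette values differed 16.7-fold on the TMM scale.

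Between apex and rosettes, 11 of 12 assembly factors, 13 of 20 genes of chlorophyll synthesis and 4 of 5 of import and insertion were lower, and none was higher, beside 6.03% of all models lower and 2.11% higher. The most negative called genes of these lists were PNSL3, an NDH subunit gene (-4.72 ± 0.65), the protochlorophyllide oxidoreductase gene PORC (-2.80 ± 0.24) and ALB3, which inserts LHC proteins into the thylakoid (-3.03 ± 0.27), with adjusted p of 0.032 to 0.035 in edgeR. As for the members, none of these calls remained with the replicate number as a block, in the fit of the 3 libraries or without either inflorescence library. Between the species, PGRL1B, of cyclic electron flow, was higher in A. lyrata (2.47 ± 0.32, adjusted p = 0.019 in edgeR). So were the protochlorophyllide oxidoreductase PORA (2.21 ± 0.32, adjusted p = 0.024) and the root-type reductase RFNR2, named after its values were seen (1.73 ± 0.33, adjusted p = 0.042). None of the genes in these pathway lists was lower, while 6.2% of all pairs were called higher and 3.74% lower. PGRL1A, the paralog of PGRL1B, was named by no A. lyrata model. In A. thaliana it had 560 and 559 CPM, beside 34.9 and 37.6 CPM for PGRL1B. The A. lyrata model of PGRL1B had 252.5 and 153.8 CPM in rosettes. RFNR1, the paralog of RFNR2, was named by no A. lyrata model either. The part of these missing paralogs in the calls was not tested.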

How the data were processed

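Per the labels and the study's methods, single-end libraries of poly-A RNA without strand information were sequenced (75-base reads for inflorescences, about 100 bases otherwise), aligned with Bowtie and TopHat, and only unique alignments were used; the tool that counted reads is not given in the sources used here. The deposited tables hold raw read counts per gene, for A. lyrata version-2 models and for TAIR10 genes. The deposited A. lyrata columns headed RPKM are counts times 1 constant per library (RPM), and the A. thaliana RPKM values use genomic span; neither was used. The authors' annotation gave A. lyrata coordinates and ortholog names, and exonic lengths of A. thaliana genes came from the NCBI RefSeq TAIR10.1 annotation.

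The members and lists were chosen with earlier results of these data known. Tissues were compared in edgeR 4.0.16 (R 4.3.3; filterByExpr, TMM, quasi-likelihood test) over all 5 A. lyrata libraries, which share 1 estimate of the spread, and species over 4 rosette libraries with exonic length as offset; an adjusted p (Benjamini-Hochberg) under 0.05 was a call. Scripts were run on simulated data with a smaller spread between libraries than in these data, which checks the code and not the calls. CPM in tissue comparisons carry TMM factors of 0.722 to 1.32, and levels of clock genes, markers and pathway genes do not. The SE given with edgeR log2 fold changes is not an output of edgeR: it is the absolute log2 fold change over the square root of the F statistic. Shares have exact Clopper-Pearson intervals.

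Values per library were to be given for each paralog family, for the 3 members of each role with the highest rosette level and for members whose call differed from their role; of each pathway list, the called gene with the largest change in each direction. These genes are given for the inflorescence comparison and, between apex and the other tissues, for some lists only, and marker lists are described by levels. The lists were assembly factors and other subunits, other ferredoxins and cyclic flow, ATP synthase, thylakoid kinases, phosphatases and xanthophyll enzymes, LHC relatives, chlorophyll synthesis, import and insertion, regulators, sigma factors, morning and evening clock genes, and markers of green leaf, meristem, flower, tapetum and pollen, and root. Alternatives were RLE or library totals, no filter, DESeq2 1.42.0, the replicate number as a block, the libraries of 2 tissues only, other length offsets, and leaving out each library. Deviations of same-numbered libraries correlated at 0.07 between inflorescences and rosettes and at -0.17 between the species, so that the numbers were not taken as pairs.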

Additional observations from a re-analysis of the deposited data

How the results depend on the processing

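Counts of members called varied with the libraries and the fit. For inflorescences over rosettes, 45 members were called, 3 to 46 when 1 library was left out (896 to 14412 of all models, 8729 with all libraries). For the shoot apex over rosettes, 42 members were called, but 0 with the replicate number as a block or with only the 2 tissues' libraries, and 0 to 47 when 1 library was left out. Of all models, 2073 were called there, 6594 with library totals alone, 4631 with DESeq2, 0 with the block, 0 with only these libraries, and 0 to 10726 when 1 was left out; in the block fit 6024 had an unadjusted p under 0.05 in edgeR. For the shoot apex over inflorescences, 2 members were called, 4 with library totals alone, 13 with DESeq2, 1 with the block, 25 with only these libraries and 0 to 22 when 1 was left out. Of all models, 3242 were called, 5130 with DESeq2, 1280 with the block, 12389 with only these libraries and 0 to 12433 when 1 was left out. Between the species, 0 members were called in edgeR, 1 with library totals alone, 6 with DESeq2, and 0 or 1 when 1 library was left out. Of all pairs, 1714 were called, 3420 with DESeq2, 595 with the replicate number as a block, and 90 to 1419 when 1 was left out. A crossed pairing of the rosettes, chosen after seeing the data, called 1 member and 1337 pairs. With the block, 44 members were called between inflorescences and rosettes. The causes were not tested. LHCB4.3 turned to 0.40 (inflorescences over rosettes, log2) with library totals alone. LHCB4.1, at 0.07 between the species, ranged from -0.27 to 0.46 when 1 library was left out, and was negative without A. lyrata rosette 2 (-0.27) and without A. thaliana rosette 2 (-0.23), and no other member named with a test reversed its direction. The mean share of LHCB4.3 in LHCB4 reads of inflorescences was 15.1%, and 18.4% per kb of exon. By level, 33 of 47 models kept their rank without division by length.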
